A study of Mus musculus with 8 samples.

Results

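The genes described here are 25 transcripts of inhibitory signalling in the hippocampus, namely 16 GABA-A receptor subunits, both GABA-B receptor subunits, and 7 genes of the inhibitory synapse and of GABA and chloride transport. They were chosen by name and by no cutoff on a measured value, with earlier results of these data known. The bulk RNAseq files held 46517 genes and the snRNAseq matrices 24051 genes. All 25 were found in both. A further 3 GABA-A subunit genes of these data are not among the members. Each assay was made from 2 Gfap-Cre;Wlsfl/- mice (mutant) and 2 Gfap-Cre;Wlsfl/+ mice (control), all about 12 weeks old and labelled male, with both hippocampi of 1 mouse per sample and 1 library per mouse. Wls encodes Wntless, which carries Wnt proteins to the cell surface. Both genotypes carry the Gfap-Cre transgene, which recombines the floxed allele in a subset of cortical progenitors and their progeny and not in every cell of the hippocampus, and the control keeps 1 intact Wls allele. Dentate granule cells (DGCs) were 36.1% and 27.9% of nuclei in the 2 control samples and 1.70% and 4.43% in the mutant samples, and the comparison asks how inhibitory receptor transcripts differ in such a hippocampus.

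GABA-A receptors are pentameric chloride channels, usually of alpha and beta subunits with a gamma or delta subunit. Many gamma-containing receptors, though not all, are held at the synapse by gephyrin. Delta-containing receptors lie outside the synapse and carry a tonic current, for which DGCs are well known. GABA-B receptors are dimers of Gabbr1 and Gabbr2 that act through G proteins. Whether GABA hyperpolarises a neuron depends on chloride, which Slc12a5 (KCC2) exports and Slc12a2 (NKCC1) imports.

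Libraries of bulk RNAseq held 56002381 to 79576196 expected counts, and those of snRNAseq 5304 to 10460 nuclei and 26307081 to 76486132 unique molecular identifiers (UMIs). Pairs of snRNAseq libraries shared 8 to 21 nucleus barcodes, 0.151% to 0.309% of the smaller library. In bulk RNAseq the sex label did not hold for replicate 2 of either genotype, in which Xist, in CPM (counts scaled to the size of each library), stood at 230 and 521 in mutant and control, against 1.42 and 1.05 in replicate 1, and Ddx3y at 0.352 and 0.343 against 53.6 and 58.7. The split is the same in both genotypes, and in all 4 snRNAseq libraries Xist was at most at 3.49 CPM. Wls was at 13.2 and 13.03 CPM in the control and 3.67 and 6.86 in the mutant bulk libraries (log2 fold change -1.31, false discovery rate (FDR) 0.117), and in astrocyte nuclei at 49.9 and 39.6 against 2.91 and 2.08 (log2 fold change -4.28, FDR 0.000227). In DGC nuclei Wls was not lower, at 3.33 and 4.45 against 4.78 and 5.64 CPM (log2 fold change 0.49, FDR 0.622). Mutant bulk replicate 2 stood apart by its choroid plexus transcripts, with a sum over 8 markers of 5547 CPM against 714 in mutant replicate 1 and 126 and 66.5 in the controls. Of the deposited cell types, 3 clusters went against their labels. Cluster 14 of the inhibitory neurons carried vascular and meningeal transcripts, and cluster 19 of the excitatory neurons carried fibroblast transcripts. Both also carried astrocyte markers. The sum of 3 such markers was 1341 and 995 CPM in the mutant and 1598 and 1264 in the control samples in cluster 14. In cluster 19 it was 946 and 435 against 1046 and 613, and in astrocytes 3547 and 3774 against 4602 and 4200. Cluster 15 of the inhibitory neurons was low in 7 inhibitory neuron markers, Gad1 and Gad2 among them. Their sum was 88.3 and 52.4 CPM in the mutant and 36.6 and 0 in the control samples, the last from 1 nucleus. In cluster 5 of the inhibitory neurons it was at least 939.

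Many of the subunit genes lie in clusters. On mouse chromosome 5 (mm10) Gabrg1, Gabra2, Gabra4 and Gabrb1 follow each other between 70751047 and 72149037, and the annotated ends of Gabra4 and Gabrb1, which run in opposite directions, overlap by 196 bases, so reads there could belong to either. Gabrg3 and Gabra5 adjoin on chromosome 7 between 56716465 and 57510059, Gabra6 and Gabrb2 on chromosome 11 between 42306437 and 42629028, and Gabre, Gabra3 and Gabrq on chromosome X between 72255999 and 72842602. Gabrd lies on chromosome 4, from 155384980 to 155398112, apart from the other members there.

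The promoters of Gabra4, Gabra5, Gabrg3 and Gabbr2 are shown because these members passed the FDR in 1 of the comparisons below. Each window runs from 250 bases before to 50 after the start site in RefSeq (GRCm38.p6, the assembly called mm10), 5′ to 3′ on the strand of the gene, and capitals mark GGGCGG or its reverse complement CCGCCC, the GC box. The table held 27 windows for 22 of the 25 members, and none for Gabrd, Abat or Slc12a2. The 4 windows lie at chr5:71658259-71658558, chr7:57510010-57510309, chr7:57387166-57387465 and chr4:46991665-46991964, all on the minus strand.
Gabra4: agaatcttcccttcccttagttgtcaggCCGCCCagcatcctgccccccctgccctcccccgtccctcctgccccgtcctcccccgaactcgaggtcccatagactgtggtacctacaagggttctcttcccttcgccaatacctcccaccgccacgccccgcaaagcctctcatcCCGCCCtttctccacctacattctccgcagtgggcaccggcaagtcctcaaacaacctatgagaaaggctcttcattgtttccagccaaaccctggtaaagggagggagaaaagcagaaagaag
Gabra5: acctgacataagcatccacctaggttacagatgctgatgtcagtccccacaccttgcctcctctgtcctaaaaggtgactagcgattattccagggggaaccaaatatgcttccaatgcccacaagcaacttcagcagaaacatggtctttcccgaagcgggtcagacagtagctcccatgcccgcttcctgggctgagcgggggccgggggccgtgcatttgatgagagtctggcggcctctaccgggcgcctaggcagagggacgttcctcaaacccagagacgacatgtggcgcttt
Gabrg3: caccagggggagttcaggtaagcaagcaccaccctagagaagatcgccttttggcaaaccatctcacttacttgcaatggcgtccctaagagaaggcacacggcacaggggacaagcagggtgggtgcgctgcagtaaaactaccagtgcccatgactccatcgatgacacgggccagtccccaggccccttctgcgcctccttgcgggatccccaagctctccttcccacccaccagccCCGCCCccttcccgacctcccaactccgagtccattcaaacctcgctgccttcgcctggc
Gabbr2: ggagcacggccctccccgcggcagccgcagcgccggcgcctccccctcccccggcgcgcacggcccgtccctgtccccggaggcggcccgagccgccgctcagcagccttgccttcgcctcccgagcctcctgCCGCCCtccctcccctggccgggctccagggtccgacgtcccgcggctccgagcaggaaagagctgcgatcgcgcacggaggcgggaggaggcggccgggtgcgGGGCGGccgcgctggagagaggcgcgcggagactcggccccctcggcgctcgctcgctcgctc
The window of Gabra4 holds the GC box 2 times, that of Gabbr2 2 times, that of Gabrg3 1 time and that of Gabra5 0 times, and 35.7% of all 32851 windows hold it. GC content was 58.7% for Gabra4, 56.7% for Gabra5, 61.0% for Gabrg3 and 80.3% for Gabbr2, against 53.8% over all windows. CTTTGAT and CTTTGAA, the letters most bound by TCF/LEF factors downstream of Wnt, were searched on both strands and are in none of these 4 windows, in 4 of the 27 member windows and in 8.65% of all windows. These matches describe the letters in the windows and nothing about binding.

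In bulk tissue the members differed widely in level. Levels in TPM, the unit that RSEM corrects for transcript length and scales to the same total in every library, were highest for Gabbr1 (466 to 496 over the 4 libraries) and Slc12a5 (235 to 282). Gabra5, Gabra2 and Gabbr2 followed at 142 to 177, 150 to 166 and 138 to 144 TPM, ranges that adjoin or overlap. Nlgn2, the adhesion protein of inhibitory synapses, was at 113 to 114 TPM and Gphn, which encodes gephyrin, at 45.0 to 51.4. Among the other subunits Gabra4 was at 47.8 to 70.0, Gabrb1 at 40.4 to 49.4, Gabrb2 at 24.8 to 57.2, Gabra3 at 20.4 to 27.5, Gabrd at 8.05 to 21.5, Gabrg1 at 9.33 to 11.8 and Gabrg3 at 4.73 to 6.14 TPM. Subunits known mainly from outside the hippocampus, such as the rho subunits of the retina, had low levels, with Gabre, Gabrp, Gabrq, Gabrr1 and Gabrr3 at most at 0.24 TPM in any library and Gabrr2 at 0.70 to 1.46. Gabra6, the subunit of cerebellar granule cells, had 50 expected counts in control replicate 2, 2 in mutant replicate 2 and 0 in the other libraries. Cbln3, another cerebellar granule cell transcript, was also highest in control replicate 2, with 173 counts against 52.7 to 90.0. Barhl1, also on the list of cerebellar granule cell markers, went the other way. It had 1 and 5 counts in the control and 16 and 18 in the mutant libraries.

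Between genotypes, Gabrd and Gabra4 were lower and Gabra5 was higher in the mutant bulk libraries. These are 3 of 21 members that passed the filter on low counts (Gabra6, Gabrp, Gabrr1 and Gabrr3 did not), 2 of them lower and 1 higher. Over all 20687 genes tested, 1.01% were called lower and 0.198% higher at FDR below 0.05 by edgeR's quasi-likelihood test, with no minimum fold change. At an unadjusted p below 0.05 stood 11 members, 7 higher and 4 lower, and 18.8% of all genes. For 15 members both mutant libraries lay outside the range of the control libraries, 10 above and 5 below, as they did for 51.1% of all genes. The median log2 fold change was 0.06 over the members and 0.01 over all genes.

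Gabrd, the delta subunit of receptors outside the synapse, stood at 20.0 and 18.4 CPM in the control and at 8.31 and 8.32 CPM in the mutant libraries. Both mutant values were under the lower control, and the fall was 2.31-fold (log2 fold change -1.21, SE 0.10, FDR 0.0218 by edgeR). Gabra4, an alpha subunit that pairs with delta in forebrain neurons, was at 108 and 109 CPM in the control and at 82.8 and 80.2 in the mutant libraries (log2 fold change -0.42, SE 0.05, FDR 0.0314). Its control values differed by less than the gap between the groups. Gabra5, the alpha subunit enriched in hippocampal pyramidal cells, was at 175 and 174 CPM in the control and at 235 and 225 in the mutant libraries (log2 fold change 0.40, SE 0.05, FDR 0.0438). The Xist-low and the Xist-high pair of libraries each hold 1 library per genotype, so neither pair gives a test of its own. With this split, which is also the replicate number, as a term in the edgeR model, none of the 3 passed (FDR 0.0504 for Gabrd, 0.0613 for Gabra4 and 0.0653 for Gabra5), with log2 fold changes of -1.21, -0.42 and 0.40. Without control replicate 1 or without control replicate 2 no gene of the table was called, and the FDR was 0.193 and 0.234 for Gabrd, 0.239 and 0.334 for Gabra4, and 0.274 and 0.362 for Gabra5.

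In bulk tissue, fewer cells of a type and less RNA per cell cannot be told apart. The 4 DGC markers all passed the FDR, and their sum was 320 and 331 CPM in the control against 50.5 and 39.2 in the mutant libraries, none of them at 0. The sum of 3 CA1 markers was 262 and 327 against 413 and 492 CPM, with none past the FDR. The sum of 3 thalamus markers was 51.5 and 45.7 against 31.5 and 35.7 CPM, with none past the FDR or at 0. Only Prkcd was lower in both mutant libraries, at 40.4 and 33.6 against 19.3 and 22.1 CPM. Tcf7l2 (5.49 and 5.99 against 6.73 and 6.90) and Lef1 (5.21 and 5.81 against 5.95 and 6.74) were higher in both. The part of DGCs, CA1 cells or thalamus in the members' differences was not tested.

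**Figure D1:**
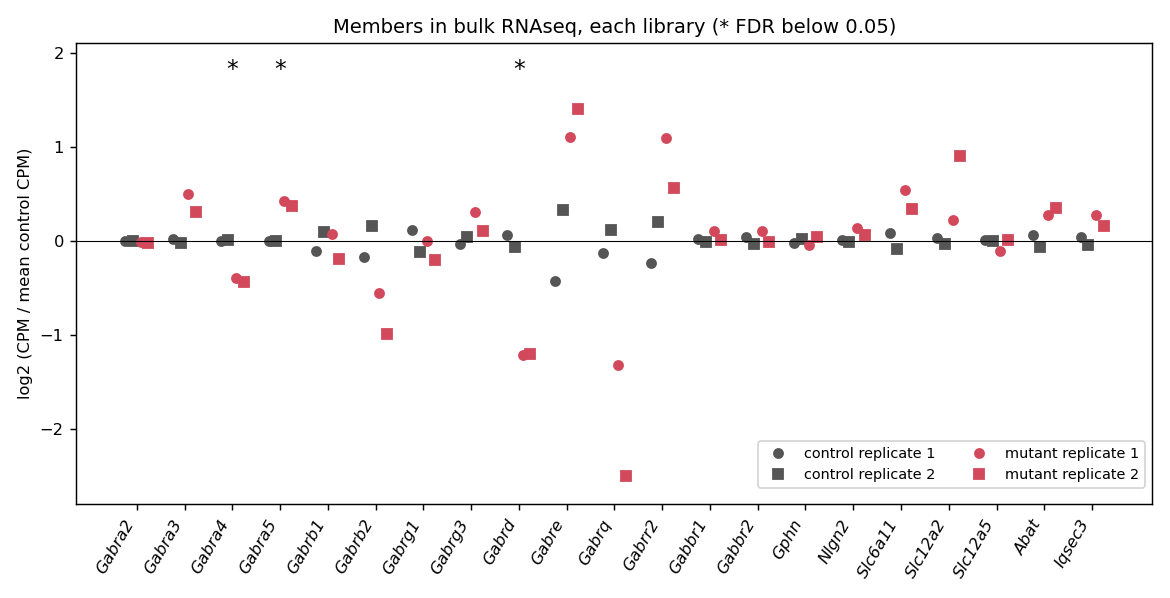
Log2 of the CPM of each bulk library over the mean control CPM (y axis) for the 21 members tested (x axis). Circles are replicate 1 and squares replicate 2, grey for control and red for mutant, and asterisks mark the 3 members with FDR below 0.05. The 2 mutant values of Gabrd lie together more than 1 log2 unit under the control, those of Gabra4 and Gabra5 lie at smaller distances with little spread, and those of Slc12a2 lie apart from each other.

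The other bulk differences did not pass the FDR. Gabrb2, the beta subunit of many synaptic receptors, was at 82.5 and 104 CPM in the control and at 63.5 and 46.9 in the mutant libraries, without overlap (log2 fold change -0.76, SE 0.17, FDR 0.120). Gabra3 was at 34.9 and 34.1 against 48.8 and 42.8 CPM, both mutant values above both controls (log2 fold change 0.41, FDR 0.100). This gene and its neighbours Gabre and Gabrq lie on chromosome X. Abat, the mitochondrial GABA transaminase that degrades GABA, was at 244 and 225 against 283 and 299 CPM (log2 fold change 0.31, FDR 0.102). Slc6a11 (GAT3), the GABA transporter of astrocytes, was at 126 and 113 against 173 and 151 CPM (log2 fold change 0.44, FDR 0.103). Iqsec3, a gephyrin-binding exchange factor, was at 279 and 265 against 328 and 303 CPM (log2 fold change 0.22, FDR 0.180). In all of these the groups did not overlap.

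Slc12a2 was at 73.7 and 70.9 CPM in the control and at 84.1 and 136 in the mutant libraries (log2 fold change 0.60, FDR 0.232). Its high value was in mutant replicate 2, the library with the most choroid plexus transcript (8 of 8 markers measured, none of them past the FDR). Choroid plexus nuclei carried Slc12a2 at 381 CPM in the 184 such nuclei of mutant replicate 2, and the part of this tissue in the bulk value was not tested. Without that library the log2 fold change was 0.21 (FDR 0.118), and without mutant replicate 1 it was 0.91 (FDR 0.000391). At low level, Gabrq was at 0.390 and 0.462 against 0.170 and 0.0754 CPM (log2 fold change -1.82, FDR 0.183), Gabre at 0.142 and 0.238 against 0.408 and 0.503 (1.24, FDR 0.242) and Gabrr2 at 0.461 and 0.626 against 1.16 and 0.805 (0.84, FDR 0.277). The groups did not overlap for these 3 either, at under 50 expected counts per library for Gabre and Gabrq.

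Of the remaining 9 members, Gabra2 was lower and Nlgn2 and Gabrg3 were higher in both mutant libraries by small amounts, and 6 overlapped. Both GABA-B subunits overlapped between groups, Gabbr1 with 720 and 703 CPM in the control against 764 and 715 in the mutant libraries and Gabbr2 with 384 and 364 against 401 and 370. Gphn was at 76.7 and 78.6 against 75.1 and 80.1 CPM and Nlgn2 at 273 and 269 against 297 and 283. Slc12a5 was at 507 and 504 against 469 and 507 CPM, and Gabra2, the alpha subunit of many forebrain synapses, at 349 and 348 against 346 and 342. Gabrb1, Gabrg1 and Gabrg3 had 271 and 313 against 308 and 256, 19.6 and 16.8 against 18.2 and 15.8, and 18.8 and 19.7 against 23.9 and 20.7 CPM. None of the 9 passed the FDR, and none had an unadjusted p below 0.05.

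The snRNAseq matrices assign the members to cell types. Levels here are CPM of all UMIs of a cell type in a sample. They are compared within a gene only, since nuclear reads include introns and favour long genes. They are given without a test, because the cells were clustered on these genes among others. Gabra4 was highest in DGCs, at 308 and 221 CPM in the 2 control samples, with 157 and 140 in the next type, cluster 7 of the excitatory neurons, ranges that do not overlap. Gabrd was at 83.4 and 86.9 CPM in DGCs and at 85.7 and 92.1 in cluster 12 of the inhibitory neurons, so these 2 types cannot be ordered, and in CA1 pyramidal cells it was at 10.8 and 11.4. Gabra2 was also high in DGCs (547 and 424 CPM), within the range of cluster 10 of the excitatory neurons (394 and 679). Gabra5 was at 155 and 158 CPM in CA2, 140 and 154 in cluster 8 of the excitatory neurons, 128 and 134 in CA3, 128 and 129 in CA1 and 136 and 114 in DGCs, so that the CA1, CA3 and DGC ranges overlap, and at 28.8 and 32.1 in cluster 5 of the inhibitory neurons.

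The beta and gamma subunits divided otherwise. Gabrb2 was highest in clusters 12 and 18 of the inhibitory neurons, at 938 and 894 and at 870 and 866 CPM, with 420 and 344 in DGCs. Gabrg3 was at 5282 and 4349 CPM in cluster 12, at 2059 and 1568 in cluster 18, at 574 and 510 in CA1 and at 79.0 and 67.9 in DGCs. The last value lies under that of astrocytes (157 and 117). Gabrb1 and Gabrg1 were highest in astrocytes, at 3575 and 3309 and at 103 and 73.7 CPM. Gabbr2 was highest in cluster 18 of the inhibitory neurons (870 and 983 CPM) and low in astrocytes (65.3 and 76.2). Astrocytes were highest for Slc6a11 (369 and 361, against 31.1 and 65.5 in the next type), Gabbr1 (318 and 405) and Gphn (1215 and 1001).

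Of the chloride transporters, Slc12a5 was at 188 and 189 CPM in cluster 7 of the excitatory neurons, 156 and 183 in DGCs and 118 and 147 in CA1, and at 19.7 and 13.1 in astrocytes and 13.5 and 16.5 in oligodendrocytes. Slc12a2 was highest in oligodendrocytes at 832 and 721 CPM, with 28.9 and 25.2 in DGCs and 14.3 and 21.8 in astrocytes. Gabrr2 was highest in oligodendrocytes, at 31.4 and 53.0 CPM from 14 and 135 UMIs. Abat was highest in cluster 5 of the inhibitory neurons (198 and 181 CPM), with 165 and 149 in astrocytes and 31.6 and 30.1 in DGCs. Iqsec3 was highest in CA3 (157 and 188 CPM), with 39.3 and 55.9 in DGCs, and Nlgn2 was at 79.95 and 102 in oligodendrocyte precursors, within the range of cluster 19 of the excitatory neurons (0 and 119). Gabra3 was at 69.8 and 114 CPM in cluster 10 of the excitatory neurons and 65.6 and 108 in oligodendrocyte precursors, which overlap, at 62.7 and 60.5 in cluster 5 of the inhibitory neurons, 38.7 and 45.7 in CA1 and 5.19 and 9.96 in DGCs. Gabra6, Gabre, Gabrp, Gabrq, Gabrr1 and Gabrr3 gave 74, 21, 41, 28, 110 and 89 UMIs in all nuclei of the 4 samples together and are not assigned to a type.

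**Figure D2:**
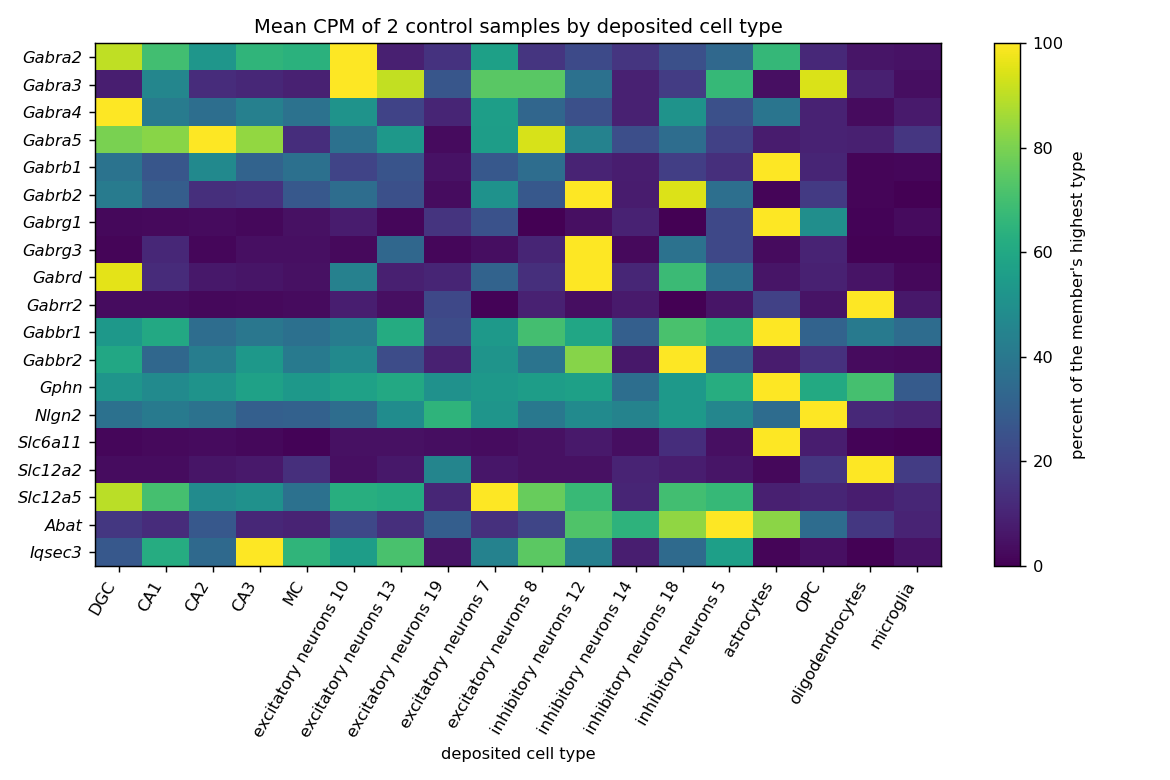
Mean CPM of the 2 control samples for 19 members (rows) in 18 deposited cell types (columns), as percent of the member's highest type. Gabra4 and Gabrd are bright in DGCs, Gabrb1, Gabrg1, Gabbr1, Gphn and Slc6a11 are brightest in astrocytes, and Slc12a2 and Gabrr2 are brightest in oligodendrocytes.

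DGCs held most of the Gabrd transcript of the control hippocampus. They made up 36.1% and 27.9% of control nuclei and carried 68.2% (95% Wilson interval 65.7% to 70.6%) and 70.1% (68.1% to 72.1%) of Gabrd UMIs in control replicates 1 and 2. In the mutant samples DGCs were 1.70% and 4.43% of nuclei and carried 9.58% (7.19% to 12.7%) and 19.7% (17.3% to 22.4%) of Gabrd UMIs. The intervals cover counting error only. For Gabra4 the share in DGCs was 52.7% and 49.6% in the control and 3.04% and 9.87% in the mutant samples. In both mutant samples most Gabra4 UMIs lay in CA pyramidal cells and other excitatory neurons. Gabrg3 had little in DGCs in either genotype (5.12% and 4.34% in the control), Slc6a11 had 52.7% and 56.1% of its control UMIs in astrocytes, and Slc12a2 had 24.4% and 47.1% in oligodendrocytes and their precursors, a share that differed between the controls as their oligodendrocyte numbers did (232 and 1029 nuclei).

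**Figure D3:**
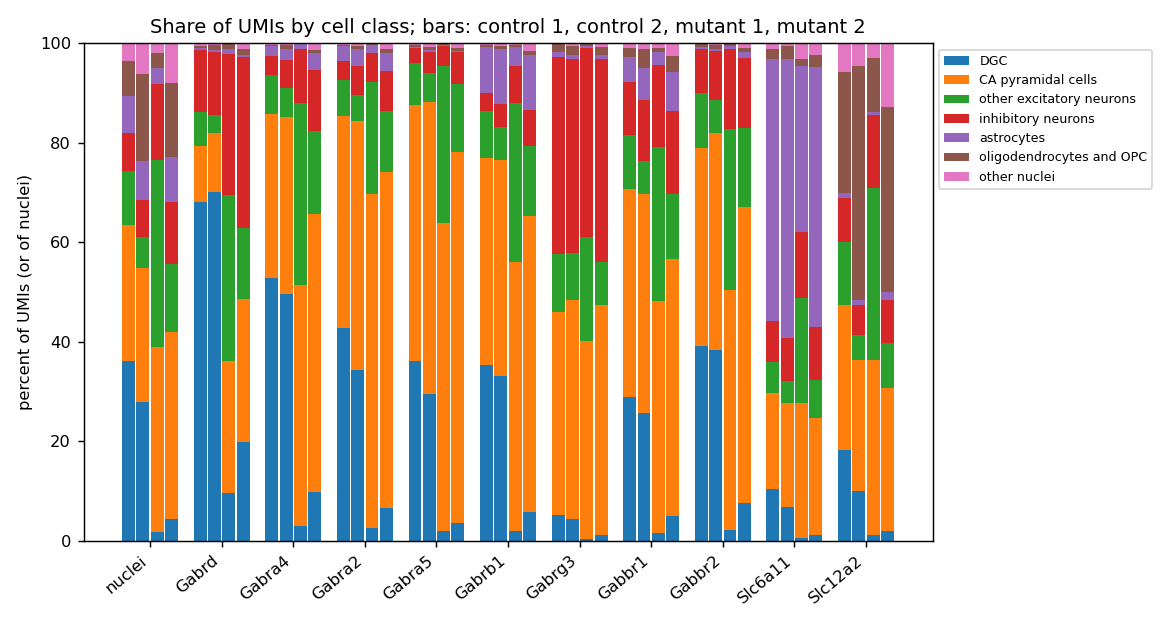
Percent of nuclei (first group of bars) and of the UMIs of 10 members (other groups) by cell class, with 4 bars per group for control 1, control 2, mutant 1 and mutant 2. The DGC segment is the largest part of the Gabrd and Gabra4 bars in both controls and falls to 9.58% and 19.7% for Gabrd in the mutants, while the astrocyte segment is the largest part of the Slc6a11 bar in all 4 samples.

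Summed over all nuclei, no member passed the FDR, and neither did any other gene (0% of 20575). By DESeq2, 521 genes were lower and 256 higher, Gabrd and Gabra3 among them (FDR 0.000176 and 0.00485). At an unadjusted p below 0.05 stood 6 of 23 members tested and 14.8% of all genes. Gabrd was at 37.0 and 32.2 CPM in the control and at 17.3 and 11.8 in the mutant samples, without overlap (log2 fold change -1.26, SE 0.22, edgeR FDR 0.177). Gabra4 was at 177 and 116 against 105 and 74.3 CPM (-0.71, FDR 0.309), also without overlap, and leaving out control replicate 1 gave -0.38. Gabra3 was at 27.5 and 30.0 against 71.2 and 46.7 (1.03, FDR 0.196), Gabrg3 at 466 and 407 against 687 and 612 (0.57, FDR 0.235) and Abat at 50.3 and 46.0 against 65.0 and 62.3 (0.40, FDR 0.264), each higher in both mutant samples. Slc6a11 was at 20.8 and 21.2 against 21.4 and 34.8 (0.42, FDR 0.469), and the log2 fold change was 0.02 without mutant replicate 2. Gabbr1 was at 190 and 207 against 144 and 163 CPM (-0.37, FDR 0.321). Gabra5, which was higher in the mutant bulk libraries, was at 114 and 101 against 120 and 107 CPM, and its groups overlapped. Gabrb2, at the lower level in both mutant bulk libraries, was at 325 and 247 against 331 and 231.

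Within the DGCs that remained, no member passed the FDR of 18 tested, where 1.77% of 15003 genes did. At an unadjusted p below 0.05 stood 3 members (Gabrg3, Gabra4 and Gabra3) and 16% of all genes. Per DGC transcript, Gabrd was at 83.3 and 87.4 CPM in the control and at 103 and 54.4 in the mutant samples, 1 above and 1 below both controls, from 43 and 183 UMIs in the 90 and 463 mutant DGCs. Gabra4 was at 308 and 222 against 198 and 172 CPM, both mutant values under both controls (log2 fold change -0.54, SE 0.20, FDR 0.232), and without control replicate 1 the log2 fold change was -0.26 (FDR 0.870). Gabrg3 was at 78.8 and 68.3 against 98.0 and 160 CPM, both mutant values higher (0.90, SE 0.22, FDR 0.0799), and it was 1.02 (FDR 0.0163) without control replicate 1 and 0.39 (FDR 0.654) without mutant replicate 2. Gabra3 was at 5.18 and 10.0 against 23.9 and 13.7 CPM (1.05, FDR 0.266), and it was 1.65 (FDR 0.0121) without control replicate 2 and 0.68 (FDR 0.611) without control replicate 1. Gabrb1, Gphn and Nlgn2 overlapped, at 1343 and 1278 against 1282 and 1343, 631 and 523 against 658 and 575, and 30.9 and 37.3 against 31.1 and 33.6 CPM.

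Markers of position along the hippocampus moved in these nuclei. Trhr, a ventral DGC transcript, was at 6.67 and 7.48 CPM in control and at 59.8 and 57.9 in mutant DGCs (log2 fold change 3.04, FDR 0.00164), and Lct, a dorsal one, at 25.1 and 28.3 against 11.96 and 9.51 (-1.43, FDR 0.0364). Among control DGCs, those with a Trhr UMI had Gabrg3 at 73.8 and 81.1 CPM and Gabra4 at 273 and 211, and those with a Lct UMI had 80.4 and 64.1 and 300.4 and 229.8. The 2 sets overlapped for both genes in the control. Mutant DGCs with a Trhr UMI had Gabrg3 at 81.3 and 189 CPM and Gabra4 at 173 and 142, from 19 and 147 nuclei.

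In CA1 pyramidal cells no gene passed the FDR. Gabrg3 was at 594 and 500 CPM in the control and at 651 and 602 in the mutant samples. Gabra3 was at 40.1 and 44.8 against 69.6 and 53.5 (log2 fold change 0.53, FDR 0.433), Abat at 27.5 and 21.7 against 42.0 and 31.4 (0.58, FDR 0.449) and Gabbr1 at 204 and 233 against 153 and 182 (-0.39, FDR 0.494). The genotype difference of Gabrg3 was larger in DGCs than in CA1 by 0.74 on the log2 scale (SE 0.17, FDR 0.00458), the only 1 of 20 members that passed this test of the difference. Over all 16987 genes 1.51% were called in that direction. The part of transcript from other cell types in this difference was not tested. The call rested on single libraries, since the difference was 0.67 (FDR 0.106) without control replicate 1 and 0.10 (FDR 0.906) without mutant replicate 2.

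In CA3 pyramidal cells 5 of 18 members had an unadjusted p below 0.05, where 12.5% of all genes did, and none passed the FDR. All 5 were higher in both mutant samples. Gabrg3 was at 156 and 244 CPM in the control and at 388 and 442 in the mutant samples (log2 fold change 1.05, FDR 0.165) and Gabra3 at 6.77 and 13.5 against 27.7 and 22.1 (1.22, FDR 0.212). Gabra2 was at 362 and 335 against 595 and 413 (0.53, FDR 0.346), Gabra5 at 130 and 131 against 228 and 154 (0.55, FDR 0.346) and Abat at 21.5 and 20.8 against 35.4 and 29.9 (0.61, FDR 0.289). Without mutant replicate 1 the log2 fold change was 0.23 for both Gabra2 and Gabra5, and without control replicate 2 Gabrg3 (1.41) and Gabra3 (1.85) passed the FDR. In mossy cells, with 27 to 89 nuclei per sample, Gabra5 was at 12.9 and 30.4 against 75.4 and 64.2 CPM (1.57, FDR 0.139) and Slc12a2 at 126 and 93.1 against 29.0 and 49.3 (-1.30, FDR 0.124), neither past the FDR, although both passed without control replicate 2 (2.35 and -1.51).

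In astrocytes Gabbr2 rose, and it was the only member called in any of the 18 cell types tested. Over these types the members gave 274 tests with 1 call, and all genes gave 182213 tests of which 0.218% were called. Gabbr2 was at 63.9 and 77.6 CPM in the control and at 183 and 161 in the mutant samples, from 73, 157, 63 and 388 UMIs (log2 fold change 1.25, SE 0.21, FDR 0.0126). Both mutant values were more than 2 times the higher control. In astrocytes 17 members were tested, and 0.165% of 11482 genes were called higher. The level in mutant astrocytes stayed under that of DGCs. The sums of 3 excitatory neuron markers in astrocyte nuclei were 63.5 and 64.5 CPM in the control and 60.2 and 75.2 in the mutant samples, and those of 7 inhibitory neuron markers 80.5 and 80.5 against 97.4 and 101, with none of those tested past the FDR and none at 0. The sum of 3 CA1 markers there was 51.0 and 49.0 against 65.9 and 75.6 CPM, both mutant values above both controls, with Mpped1 at 29.8 and 28.7 against 55.3 and 51.1 (log2 fold change 0.84, FDR 0.195). The sum of 4 DGC markers was 39.3 and 38.8 against 20.1 and 17.9. Pou3f1, the other CA1 marker tested there, was at 16.6 and 18.8 against 8.73 and 19.5 CPM (log2 fold change -0.05). Fibcd1 did not pass the filter on low counts. Thus Mpped1 rose in these nuclei and Pou3f1 did not, and the part of neuronal transcript in the rise of Gabbr2 was not tested. Without control replicate 1, control replicate 2 or mutant replicate 2 the call was lost (FDR 0.879, 0.315 and 0.143), with log2 fold changes of 1.11, 1.41 and 1.36.

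The partner subunit Gabbr1 was at 312 and 412 CPM in control and at 276 and 417 in mutant astrocytes, and its groups overlapped. Slc6a11 was at 362 and 368 CPM in control and at 541 and 596 in mutant astrocytes (log2 fold change 0.65, SE 0.17, FDR 0.109), above both controls and without passing. Gabra3 was at 5.25 and 2.47 against 11.6 and 8.72 CPM there.

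Inhibitory neurons had no member past the FDR. In cluster 12, Gabrd was at 87.2 and 93.1 CPM in the control and at 32.3 and 51.4 in the mutant samples, without overlap (log2 fold change -0.99, SE 0.25, FDR 0.172). In cluster 10 of the excitatory neurons it was at 38.5 and 39.9 against 19.1 and 17.2 CPM (-1.12, SE 0.30, FDR 0.303). The sum of 4 DGC markers was also lower in these nuclei, with none of those tested past the FDR. It was 51.4 and 35.7 against 14.6 and 23.1 CPM in cluster 12, and 45.5 and 30.5 against 2.37 and 9.43 in cluster 10. The part of DGC transcript in the lower Gabrd was not tested. In cluster 5, Gabra3 was at 62.7 and 60.0 against 111 and 79.6 CPM (0.62, FDR 0.328) and Gabbr1 at 210 and 259 against 155 and 200 (-0.40, FDR 0.442). With the inhibitory clusters pooled, 0 of 18 members passed, and the same count was found without clusters 14 and 15.

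Several members had 1 sign in most cell types, and none of these passed the FDR in any type apart from Gabbr2 in astrocytes. Over all genes and types, 50.2% of log2 fold changes were above 0 and 49.8% below, and both mutant samples lay above both controls in 19.9% and below them in 20.6%. Gabrd was lower in 9 of the 9 types in which it was tested, in 2 of them with both mutant samples under both controls. The part in this of DGC transcript found in other nuclei was not tested. Gabbr1 was lower in 16 of 17 types, in 13 of them with both mutant samples under both controls, and its median log2 fold change was -0.31. Gabbr2 was higher in 17 of 17 (median 0.25), in 6 of them without overlap, and Gabra3 in 13 of 14 (median 0.55), in 11 without overlap. Abat was higher in 14 of 16 types (median 0.29), in 8 without overlap, and Slc6a11 in 12 of 13 (median 0.52), in 7 without overlap, a type count that includes neurons where its level was a small part of that in astrocytes. The types come from the same 4 samples and are not independent, so no test was made over them, and the lower Gabbr1 of the nuclei was not seen in bulk RNAseq, where its groups overlapped.

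**Figure D4:**
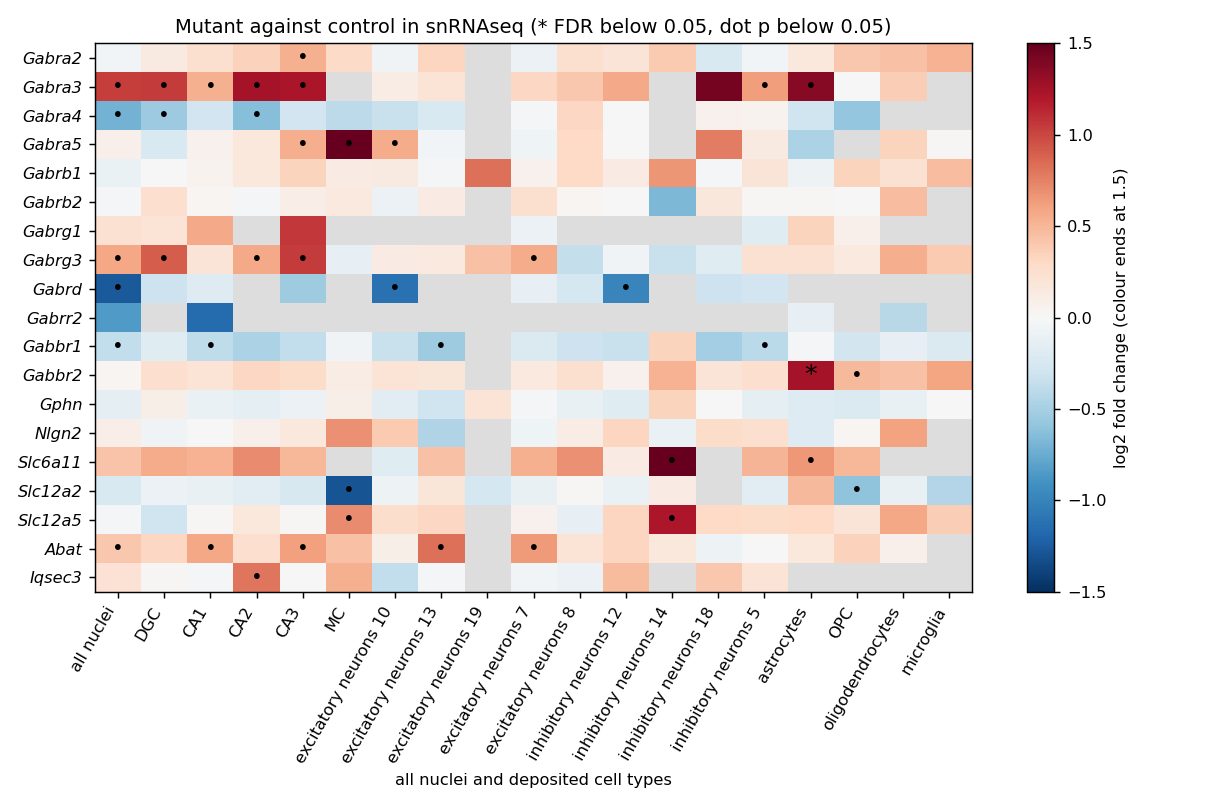
Log2 fold change of mutant against control (colour, red higher and blue lower, ending at 1.5) for 19 members (rows) in all nuclei and in 18 deposited cell types (columns), grey where a member was not tested. An asterisk marks FDR below 0.05 (Gabbr2 in astrocytes alone) and a dot an unadjusted p below 0.05. The rows of Gabra3 and Gabbr2 are mostly red and those of Gabrd and Gabbr1 mostly blue.

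The other genes of the pathway are given by list, beside the 1.21% of all genes called in bulk RNAseq in either direction and the 18.8% with an unadjusted p below 0.05. Of the 3 GABA-A subunit genes outside the members, 0 passed the FDR in bulk RNAseq and 0 had an unadjusted p below 0.05 (median log2 fold change -0.12). Of 8 genes of GABA synthesis, vesicular loading, uptake and breakdown, 0 passed the FDR in bulk RNAseq, and 7 had an unadjusted p below 0.05 (median log2 fold change 0.16). Of 18 genes of scaffolds and adhesion at inhibitory synapses, 15 were tested and 0 passed (median 0.00). Of 14 genes of chloride transport and its kinases 0 passed in bulk (median 0.09). Of 8 genes for GABA-B auxiliary subunits and their potassium channels 1 passed, Kcnj9, which encodes a channel opened by GABA-B receptors, at 73.2 and 74.4 CPM in the control and 54.0 and 51.3 in the mutant libraries (log2 fold change -0.49, SE 0.05, FDR 0.0282). In the nuclei none of these lists had a member past the FDR in all nuclei, DGCs, CA1, astrocytes or cluster 5 of the inhibitory neurons, and in the comparison of DGCs with CA1 only Car2 passed (0.90, FDR 0.0326). Among 7 inhibitory neuron markers in bulk RNAseq, Sst (81.3 and 88.1 against 140 and 121 CPM, FDR 0.0495) and Pvalb (19.4 and 20.9 against 31.1 and 33.7 CPM, FDR 0.0433) rose, and the sum of the 7 was 727 and 713 in the control and 844 and 892 CPM in the mutant libraries. Its part in the higher Abat was not tested.
 the FDR in all nuclei, DGCs, CA1, astrocytes or cluster 5 of the inhibitory neurons, and in the comparison of DGCs with CA1 only Car2 passed (0.90, FDR 0.0326). Among 7 inhibitory neuron markers in bulk RNAseq, Sst (81.3 and 88.1 against 140 and 121 CPM, FDR 0.0495) and Pvalb (19.4 and 20.9 against 31.1 and 33.7 CPM, FDR 0.0433) rose, and the sum of the 7 was 727 and 713 in the control and 844 and 892 CPM in the mutant libraries. Its part in the higher Abat was not tested.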

How the data were processed

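The authors aligned bulk RNAseq reads to mm10 with RSEM 1.3.0 and Bowtie2 2.2.9 and deposited an expected count per gene, with multi-mapping reads shared between genes, the TPM that RSEM computes from it, and a matrix of signal, the expected count divided by 1 factor per library. For snRNAseq the authors used Cell Ranger 3.1.0 on a pre-mRNA index and deposited, per nucleus, a UMI count for every gene and a cell type. Cell calling, clustering and annotation are thus the authors'. How doublets were treated is not given in the sources used here, and no doublet caller was run.

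Expected counts were rounded, and UMI counts were summed per sample, over all nuclei and for each of 18 types that had 10 or more nuclei in all samples. Genotypes were compared with edgeR 4.0.16 (R 4.3.3; quasi-likelihood test, filterByExpr, TMM scaling, Benjamini-Hochberg adjustment over all genes tested, FDR below 0.05). Each standard error was obtained by dividing the log2 fold change by the square root of F. The comparison of DGCs with CA1 used an interaction term with the mouse as a block. With 2 mice per genotype, no exact test over samples could pass 0.05. Alternatives were DESeq2 1.42.0, RLE scaling, no filter on low counts, the deposited matrix as log2(value + 1) in limma 3.58.1, minimum fold changes, the replicate number as a block, other choices of nuclei, and each sample left out. The test was checked on simulated bulk and DGC counts with known changes. These changes were large, and the spread between samples was a fixed setting not taken from these data. The check therefore does not give the power or error rate for the differences reported here. Gene positions come from gencode vM21 (GRCm38) and were matched by Ensembl ID, all 25 of 25. Columns of per-sample values without a labelled sample numbered 0.

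The members, gene lists and tests were chosen with earlier results of these data known. All 25 members are named. Genes of the other lists are named where they passed the FDR or check a label. Cbln3, Barhl1, the single thalamus and CA1 markers and the single inhibitory neuron markers in DGCs were named after their values were seen. Protein sequences were not used here.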

Additional observations from a re-analysis of the deposited data

Results flagged for a closer look

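The genotype difference of Gabrg3 differed between 2 cell types. In DGCs its level was 78.8 and 68.3 CPM in the control and 98.0 and 160 in the mutant samples, in CA1 it was 594 and 500 against 651 and 602, and the interaction was 0.74 on the log2 scale (SE 0.17, edgeR FDR 0.00458). The value was 0.10 without mutant replicate 2, the sample with 463 of the 553 mutant DGCs, and 0.67 without control replicate 1. Gabrg3 was higher in 13 of the 18 cell types tested, with its largest log2 fold change, 1.05, in CA3. In DGCs the sum of 3 CA1 markers was 18.99 and 22.2 CPM in the control and 19.3 and 25.4 in the mutant samples. The sum of 7 inhibitory neuron markers was 72.8 and 79.1 against 77.3 and 65.7, and the groups overlapped for both sums. Mpped1 (4.39 and 7.48 against 11.96 and 16.04), Sst (9.21 and 11.5 against 19.1 and 16.6) and Pvalb were higher in both mutant samples. Pou3f1, Gad2 and Lamp5 were lower in both, and none passed the FDR. The part of transcript from other cell types in the DGC values was not tested.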

How the results depend on the processing

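For 39 differences of single genes picked from those given above, all 328 values under the alternatives kept their direction, and 0 were reversed. The 39 leave out differences whose groups overlapped, such as Gabrd in DGCs and Gabra5 over all nuclei, and fits that gave no FDR were not counted. Where groups do not overlap, leaving out 1 sample can hardly reverse a direction, so this count was largely fixed by the choice. Counts of members past the FDR moved more. In bulk RNAseq (3 members) they were 8 with DESeq2, 9 with no filter on low counts, 0 at a fold change above 3, and between 0 and 7 with 1 sample left out. Over all nuclei (0 members) the count was 2 with DESeq2. Over the 18 cell types (1 call) it was 2 with DESeq2, 7 with no filter, and between 1 and 6 with 1 sample left out. For DGCs against CA1 (1 member) it was between 0 and 2 with 1 sample left out. In pooled inhibitory neurons (0 members) it was 1 with no filter. Over all genes, 209 were lower and 41 higher in bulk RNAseq, with 917 and 623 by DESeq2, 1082 and 969 with no filter, 920 and 940 without mutant replicate 1, 502 and 304 without mutant replicate 2, and 0 and 0 without either control. Over all nuclei 0 and 0 became 521 and 256 by DESeq2 and 16 and 1 without mutant replicate 2. In DGCs 109 and 156 became 488 and 453 with no filter, 266 and 445 without control replicate 2, 1 and 15 without mutant replicate 1, and 0 and 0 without mutant replicate 2. In astrocytes 30 and 19 became 121 and 72 with no filter, 117 and 95 without mutant replicate 1, 2 and 2 without mutant replicate 2, and 0 and 0 without either control. The cause of these moves was not tested.

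The same replicate numbers stand in both genotypes, and the labels do not say that a number marks a shared litter or day. The deviations of same-numbered samples from their group means correlated at 0.05 in bulk RNAseq and 0.50 over all nuclei, with 2 pairs each. With the replicate number as a block, 0 members passed in bulk RNAseq, 4 over all nuclei, 18 calls were made over the cell types and 5 in pooled inhibitory neurons. Over all genes, the block gave 82 lower and 12 higher in bulk RNAseq, 1118 and 752 over all nuclei and 758 and 681 in DGCs.

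Under TMM factors in place of total UMIs, 17 of 19 members kept their highest cell type. Gabrd moved from cluster 12 of the inhibitory neurons to DGCs and Gabbr2 from cluster 18 to cluster 12. With equal weight per nucleus, the cell class that held most UMIs stayed the same for 9 of 18 members, Gabrd, Gabra4 and Slc6a11 among them. Mutant replicate 1 has 90 DGC nuclei, which limits every value in mutant DGCs.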
